A study of Mus musculus with 7 samples.

Results

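Of the 7 selenoprotein mRNAs looked for by gene symbol (Gpx1, Gpx4, Txnrd1, Sepw1, Sep15, Selk and Selt), 6 were listed in the CIRS-seq count tables and Selt was not. The 6 genes had 18 transcripts, 11 of them protein-coding, out of 26827 transcripts of 13218 genes. CIRS-seq reads out RNA structure through the places where reverse transcription (RT) stops. DMS methylates unpaired A and C, CMCT modifies unpaired U and, less readily, G, and the cDNA ends next to the modified base. Lysates of E14 mouse embryonic stem cells (ESCs), grown with LIF and stripped of protein with Proteinase K, were left untreated (NT, the 0 mM aliquots of both reagents pooled), treated with DMS (50 to 200 mM, doses pooled) or treated with CMCT (10 to 50 mM, doses pooled). There were 2 biological replicates of each, and RNA-seq of the same line, from total RNA of cells lysed in TRIzol, in 1 library. Ribosomal RNA was depleted in all 7 libraries. The CIRS-seq groups share the cell line and the Proteinase K step, and the NT pool joins aliquots kept in the buffers of both reagents.

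Selenoproteins carry selenocysteine, which is inserted at an in-frame UGA codon that would otherwise end translation. In mammals the recoding depends on a hairpin in the 3' UTR, the selenocysteine insertion sequence (SECIS) element, which is bound by SECIS-binding protein 2 and brings the dedicated elongation factor and tRNA to the ribosome. The core of the hairpin is a quartet of non-Watson-Crick pairs that opens with AUGA, and above it lies a helix that ends in an apical loop or bulge holding a short run of unpaired A. Gpx1 and Gpx4 encode glutathione peroxidases, which reduce hydrogen peroxide and, for Gpx4, lipid hydroperoxides in membranes. Txnrd1 encodes the cytosolic thioredoxin reductase. Sepw1 encodes a small thioredoxin-like protein, Sep15 a protein of the endoplasmic reticulum that binds the glycoprotein-folding sensor UGGT, and Selk a protein of the endoplasmic reticulum membrane with a part in the degradation of misfolded proteins.

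The selenocysteine codon is shown first because it defines the group. Each line gives the codon in capitals with its neighbours in the spliced mRNA, read from the mm9 genome, and all 6 codons are UGA in frame.

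Gpx1: gucgcgucucucUGAggcaccacgauc

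Gpx4: guggccucgcaaUGAggcaaaacugac

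Txnrd1: cagucuggcugcUGAgguuaagcccca

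Sepw1: uauuguggagcuUGAggcuauaagccc

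Sep15: gaagucugcggaUGAaaauuggggagg

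Selk: auggcugguggaUGAggaagguaaaug

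In mm9 these codons lie at chr9:108241782-108241784 (Gpx1, codon 47), chr10:79517482-79517484 (Gpx4, codon 73), chr10:82358782-82358784 (Txnrd1, codon 498), chr7:16505813-16505815 on the minus strand (Sepw1, codon 13), chr3:144253609-144253611 (Sep15, codon 93) and chr14:30786626-30786628 (Selk, codon 92). The codon was near the start of the Sepw1 coding region, which has 88 codons, and next to the last residue of Txnrd1 and close to it in Selk, with 499 and 94 codons. In the Txnrd1 transcript with the longest annotated coding region, Txnrd1-204, the annotation ends the coding region at this UGA, so the last codons of the enzyme there count as 3' UTR.

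The 5' strand of each predicted SECIS element is shown because the later results turn on its letters. The quartet letters AUGA and the apical AA are in capitals.

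Gpx1: AUGAugguguuuccucuAA

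Gpx4: AUGAaggucugccugaAA

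Txnrd1: AUGAagucacuggccucAA

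Sepw1: AUGAcaggaaggacugAA

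Sep15: AUGAggauuacacagAA

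Selk: AUGAggucaugcugggAA

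These stretches lie in the 3' UTR at chr9:108242525-108242543 (Gpx1), chr10:79519039-79519056 (Gpx4), chr10:82359034-82359052 (Txnrd1), chr7:16502831-16502848 on the minus strand (Sepw1), chr3:144260483-144260499 (Sep15) and chr14:30787798-30787815 (Selk). A candidate was AUGA, 8 to 14 bases, AA, 10 to 45 bases and GA on the sense strand, folded with RNAfold, and the candidate with the most pairs between the bases on both sides of the AA was kept. All 6 mRNAs held a candidate with at least 8 such pairs, with 11 pairs in Gpx1, Sepw1 and Selk, 10 in Sep15 and 9 in Gpx4 and Txnrd1. The letters alone were found in 59.5% of the 6518 3' UTRs searched, and the letters with 8 pairs in 23.0% of them. Among the 1878 3' UTRs of 200 to 800 bases the second share was 8.63%, so a match is a description of these sequences and does not by itself make a SECIS element. The element began at base 56 to 133 of the 3' UTR in Gpx1, Gpx4, Sepw1 and Selk, at base 250 in Txnrd1 and at base 565 in Sep15. It was 41 to 47 bases long and ended 101 to 417 bases before the end of the transcript, except in Txnrd1, where 1393 bases followed it.

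A position was counted as mappable when the 25 bases from it onward occurred at 1 place in mm9, or across a splice junction in 1 gene. The libraries held 181944556 to 338201940 RT stops, of which 7.91% to 12.7% lay at mappable positions (17526831 to 36722419 stops), to which gene values were scaled. RNA-seq levels were alignments per kb of exon per 1000000 alignments whose midpoint lay in exons of exactly 1 gene (22286799 of 31857551). On this scale the ESC markers Pou5f1, Sox2, Nanog, Zfp42, Esrrb, Tdgf1, Dppa5a and Klf4 had 10.7 to 315.5 in the RNA-seq library. The 5 markers of differentiated cells (Sox17, T, Gata4, Pax6 and Nes) had 0.097 to 2.16 on the same scale, and the 3 fibroblast markers (Col1a1, Col1a2 and Thy1) had 0.011 to 0.336. The members had 94.3 (Gpx1), 43.6 (Sep15), 38.3 (Gpx4), 34.2 (Txnrd1), 12.5 (Sepw1) and 5.36 (Selk) alignments on the same scale, with no replicate to order neighbours by.

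Not all members could be read equally well, because several have near-identical copies in the genome. Mappable positions made up 99.6% of the Gpx1 transcript, 99.8% of Txnrd1-204, all of Sepw1, 94.8% of Sep15-001, 54.2% of Selk-001 and 39.0% of Gpx4-002. None of the 196 counted bases of the Gpx4 3' UTR was mappable, and each 25-base stretch of its SECIS element occurred up to 3 times in mm9. In Selk, 24 of the 282 coding bases were mappable. Counts at all positions were used for the Gpx4 3' UTR and the SECIS elements. The region tests of Selk used its 24 mappable coding bases, and its ratios at all positions are given beside them. At positions that are not mappable, reads of the gene and of its copies cannot be told apart.

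Each mRNA was given a level in each library, as RT stops per kb of mappable sequence per 1000000 mappable stops. Gpx1 had 162 and 147 in NT, 187 and 132 in DMS, and 134 and 183 in CMCT. These values overlapped between the treatments. Sep15 had 38.1 and 37.8 in NT, 46.8 and 51.4 in DMS, and 37.8 and 41.6 in CMCT. Txnrd1 had 36.1 and 29.5 in NT, 37.9 and 29.9 in DMS, and 42.5 and 45.7 in CMCT. Both DMS libraries were above both NT libraries for Sep15, and both CMCT libraries were above them for Txnrd1.

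Sepw1 had 29.8 and 24.2 in NT, 50.3 and 57.5 in DMS, and 27.0 and 35.0 in CMCT, on the same scale. Its DMS libraries stood above all the others. Selk, the least abundant member, had 10.0 and 12.9 in NT, 11.4 and 14.5 in DMS, and 8.41 and 8.64 in CMCT. Its CMCT libraries were below the NT libraries. In the comparison of DMS with NT, libraries that did not overlap were found for 74.1% of the 11672 genes tested, against 2 of 6 members, and in that of CMCT with NT for 62.5%, against 3 of 6 members. Within a group, the members other than Gpx4 kept the order Gpx1 highest and Selk lowest in every library, while Sep15, Txnrd1 and Sepw1 had values within 24.2 to 57.5 and changed places.

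**Figure D1:**
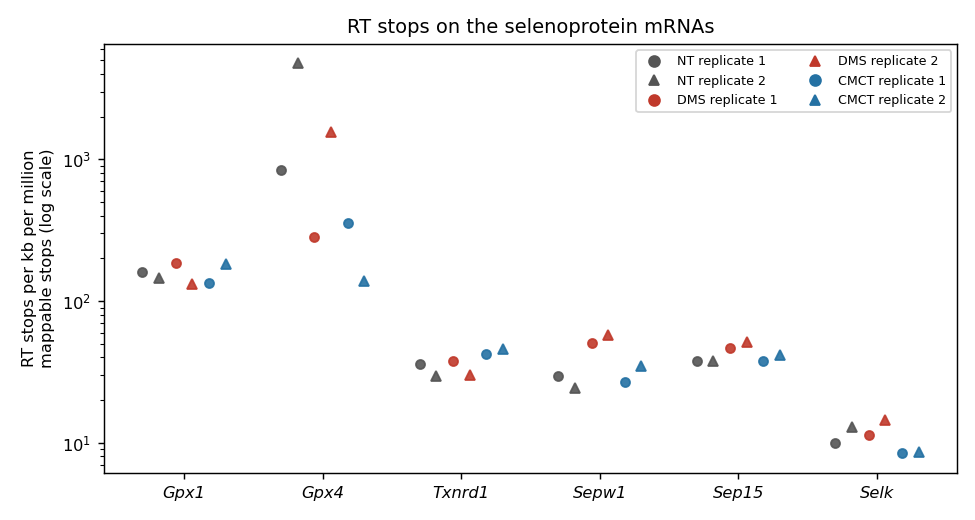
RT stops per kb of mappable sequence per 1000000 mappable stops (log axis) for the 6 selenoprotein mRNAs found, with 1 point per library: circles for replicate 1, triangles for replicate 2, grey for NT, red for DMS and blue for CMCT. Gpx1 lies between 132 and 187 and Selk between 8.41 and 14.5, and the 6 Gpx4 values run from 140 to 4752.

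Gpx4 stood apart from the other members. It had 843 and 4752 RT stops per kb on this scale in NT, 284 and 1566 in DMS, and 354 and 140 in CMCT, with a wider gap between the replicates of each treatment than in any other member. Most of these stops came from 1 exon. The first exon of Gpx4-001 (chr10:79516233-79516460), the transcript with the shorter coding region, which starts in this exon, held 57.3% to 98.2% of the stops of that transcript. The 3 strongest positions, bases 170, 173 and 174 of the transcript, alone held 14483 and 68179 stops in NT, 3780 and 20714 in DMS, and 9404 and 1881 in CMCT, or 35.5% to 76.2% of the transcript's stops. They are shown in capitals in the sense strand, chr10:79516390-79516416, to place them, and all are U.

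Gpx4-001, bases 158 to 184: gucugagccgcuUacUUaagccagcac

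Without this exon, Gpx4 had 1018 and 541 mappable RT stops in NT, 1239 and 1531 in DMS, and 1029 and 691 in CMCT. The replicates then differed by less than in the exon. The cause of the stops in the first exon was not tested.

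In a test across all genes, 0 of 6 members passed the threshold in either comparison (at an unadjusted p under 0.05, Sepw1 with DMS and Gpx4 with CMCT). DMS and CMCT were set against NT with edgeR's quasi-likelihood test and the Benjamini-Hochberg adjustment at 0.05, over 11672 genes, of which 14.6% were called with DMS and 9.43% with CMCT. The members' log2 fold changes with DMS ran from -1.80 to 0.75, with a median of -0.13 beside 0.11 for all genes. Sepw1 had the highest value, 0.75 (SE 0.25, adjusted p = 0.10), and Gpx4 the lowest, -1.80 (SE 1.04, adjusted p = 0.27). Without its first exon Gpx4 had 0.54 (SE 0.29, adjusted p = 0.24), with the opposite sign. Gpx1, Txnrd1, Sep15 and Selk lay between -0.20 and 0.13. With 2 libraries per treatment, a value that missed the threshold does not show that the levels were alike.

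With CMCT, the members' log2 fold changes ran from -3.51 to 0.38, with a median of 0.01 beside 0.10 for all genes. Gpx4 had -3.51 (SE 1.12, adjusted p = 0.11). It was -0.40 (SE 0.29, adjusted p = 0.40) without the first exon, so that exon carried most of the difference. Txnrd1 had 0.38 (SE 0.24, adjusted p = 0.33), Selk -0.46 (SE 0.24, adjusted p = 0.25), and Gpx1, Sepw1 and Sep15 lay between -0.01 and 0.15. Gpx4 passed the threshold with DESeq2 (log2 fold change -3.71, adjusted p = 0.032) and with all positions counted (log2 fold change -3.01, edgeR's quasi-likelihood test, adjusted p = 0.011), both with the first exon included. Of all genes, 16.7% were called with CMCT by DESeq2 and 29% with all positions.

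The other genes of the selenoprotein system were read against the 14.6% and 9.43% of all genes called by edgeR with DMS and CMCT, and the 15.9% and 16.7% called by DESeq2. A list of 22 symbols, some of them synonyms of the same gene, was looked for as other selenoprotein genes. Of these, 4 were tested (Sepp1, 2700094K13Rik, Sepx1 and Sephs2) and 0 were called by edgeR or DESeq2 with either reagent. Sepp1 had an unadjusted p of 0.027 with CMCT in edgeR's test (log2 fold change -0.89, adjusted p = 0.13). Of 12 genes of selenocysteine synthesis and insertion, 7 were tested, 0 were called with DMS by edgeR or DESeq2 (1 had an unadjusted p under 0.05 in edgeR's test) and 1 was higher with CMCT. That gene was Ncl, the nucleolar RNA-binding protein nucleolin, with a log2 fold change of 1.26 (SE 0.28, edgeR's quasi-likelihood test, adjusted p = 0.037). With all positions counted, Secisbp2l, a paralogue of SECIS-binding protein 2, was called by the same test with DMS (log2 fold change 2.08, adjusted p = 0.00041) and with CMCT (1.08, adjusted p = 0.010), against 0.21 and 0.49 (adjusted p = 0.67 and 0.33) at mappable positions. At all positions 26.4% and 29% of all genes were called. The gene that the RefSeq gene table lists with the synonym Selt, given as 2810407C02Rik in the annotation, was outside the symbols of the group. It had log2 fold changes of -0.58 with DMS and -0.51 with CMCT and passed neither threshold. It is named here after its values were seen.

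The base at which RT stopped differed between treated and NT libraries on nearly all members, as it did on most genes. Among the stops on Txnrd1, A made up 12.9% and 11.5% in NT, 35.5% and 46.4% in DMS, and 13.8% in both CMCT libraries. On Gpx4, counted at all positions, A made up 10.4% and 11.2% of the stops in NT and 33.8% and 56.8% in DMS. The 2 DMS libraries were above the 2 NT libraries in the share of A for 5 of 6 members, beside 89.1% of the 5084 genes with at least 100 mappable stops in each library. The exception was Sepw1, with 8.75% and 15.9% in NT and 13.3% and 23.2% in DMS, where the groups overlapped. The share of C was not higher in both DMS libraries for any of the 6 members, beside 6.45% of genes, and C already made up 28.5% to 51.3% of the stops without treatment.

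With CMCT the share of U was above both NT libraries for 6 of 6 members, beside 80.4% of genes. On Selk, counted at all positions, it was 30.4% and 28.1% in NT and 46.7% and 48.1% in CMCT. On Sep15 it was 29.9% and 28.7% in NT and 41.1% and 43.2% in CMCT. The share of G, the other base that CMCT can modify, was lower in both CMCT libraries for 5 of 6 members and higher for 0, beside 53.5% and 8.87% of genes.

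**Figure D2:**
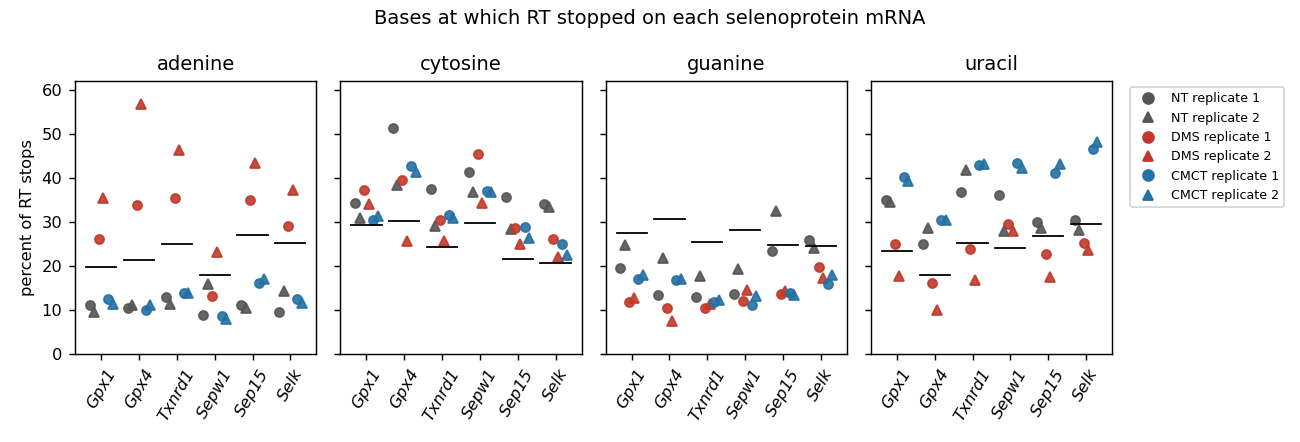
Percent of the RT stops of each selenoprotein mRNA that fell on adenine, cytosine, guanine and uracil, with 1 point per library (circles replicate 1, triangles replicate 2; grey NT, red DMS, blue CMCT) and a black line at the base's percent of the transcript. Red points stand above the grey ones for adenine in 5 of 6 mRNAs and blue points above the grey ones for uracil in all 6.

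The 3' UTR was then set against the coding region in the same transcript, as RT stops per mappable base without the last 25 bases of the transcript, which carry no counts. Gpx1 had 0.221 and 0.292 times as many stops per base in the 3' UTR as in the coding region in NT, 0.272 and 0.366 times in DMS, and 0.299 and 0.333 times in CMCT. Sepw1 had ratios of 0.125 and 0.292 in NT, 0.242 and 0.397 in DMS, and 0.160 and 0.167 in CMCT. In both mRNAs the 3' UTR thus had fewer stops per base than the coding region in every library. Txnrd1 had ratios of 0.758 and 1.02 in NT, 0.597 and 0.653 in DMS, and 0.695 and 0.829 in CMCT. The transcript used, with the longest coding region, had 0 stops on its 5' UTR in every library. Another Txnrd1 transcript has an annotated selenocysteine codon and the shortest coding region. Its ratios were 0.620 and 0.858 in NT, 0.495 and 0.559 in DMS, and 0.576 and 0.694 in CMCT, with none above 1. With either transcript, both DMS libraries were below both NT libraries.

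Sep15 lay the other way. Its ratio was 0.631 and 0.672 in NT, 0.942 and 1.09 in DMS, and 0.889 and 1.09 in CMCT, so that all 4 treated libraries were above both NT libraries. Selk, with 24 mappable coding bases and 3 to 36 stops on them, had ratios of 0.217 and 0.548 in NT, 0.262 and 0.274 in DMS, and 0.123 and 0.196 in CMCT. Counted at all positions, Selk had 0.483 and 0.760 in NT and 0.408 to 0.533 in the treated libraries. Gpx4-002 at all positions had 0.725 and 1.14 in NT, 0.703 and 0.440 in DMS, and 1.12 and 1.13 in CMCT, with copies included.

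Per library, 0 or 1 of the 5 members with mappable 3' UTR bases had more stops per base in the 3' UTR than in the coding region, and over the mean of the 6 libraries 0 of 5 had. Of 5951 genes tested, 28.6% to 37.9% had more in the 3' UTR, depending on the library, with a median log2 ratio of -0.44 to -0.78. The members' median log2 ratio was -0.87 to -2.18. The 3 genes whose 6 log2 ratios were nearest to the members' median, among 1669 genes with at least 100 mappable stops in each region of each library, were Ankrd17 (Euclidean distance 0.565), Rab1 (0.570) and Agpat6 (0.648), and their ratios ran from -2.08 to -1.23 on the log2 scale.

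**Figure D3:**
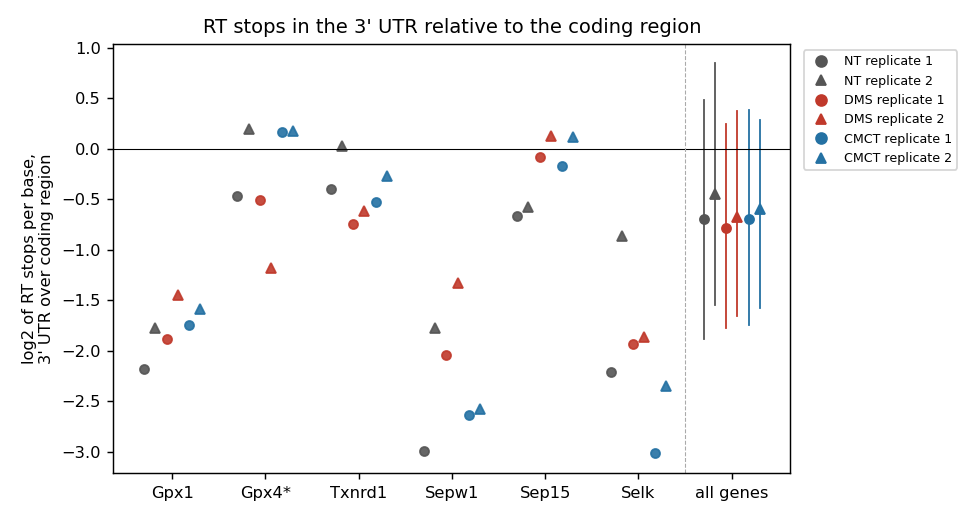
Log2 of RT stops per base in the 3' UTR over the coding region, with 1 point per library (circles replicate 1, triangles replicate 2; grey NT, red DMS, blue CMCT); Gpx4, marked with a star, is at all positions and the others at mappable positions. At the right, the points are the medians of 5951 genes and the lines run from the 25th to the 75th percentile. Gpx1, Sepw1 and Selk lie below 0 in every library, and the treated Sep15 libraries lie above its NT libraries.

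Whether this ratio differed between treated and NT libraries was tested with edgeR's quasi-likelihood test on both regions of each library, with the library as a block. Of 5951 genes, 0.0504% were called with DMS and 0.0168% with CMCT, and 0 of 5 members with either (with an unadjusted p under 0.05, Sep15 with both). Sep15 had log2 changes of the ratio of 0.71 (SE 0.22, adjusted p = 0.14) with DMS and 0.69 (SE 0.22, adjusted p = 0.17) with CMCT, relative to the typical gene. DESeq2, run on the same counts, called Sep15 with DMS (0.79, adjusted p = 0.0044) and with CMCT (0.66, adjusted p = 0.029), where it called 6.39% and 5.65% of all genes. Libraries that did not overlap were found for 2 of 5 members with DMS, beside 56.2% of genes, and for 3 of 5 with CMCT, beside 53.5%.

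The other members had log2 changes of the ratio with DMS of 0.39 for Gpx1 (adjusted p = 0.39), -0.42 for Txnrd1 (adjusted p = 0.33), 0.77 for Sepw1 (adjusted p = 0.29) and -0.11 for Selk (adjusted p = 0.96) in the same test. With CMCT they were 0.41 for Gpx1, -0.11 for Txnrd1, -0.12 for Sepw1 and -0.91 for Selk, with adjusted p of 0.35 to 0.91. The members' median was 0.39 with DMS and -0.11 with CMCT, beside -0.11 and -0.01 for all genes tested. The Selk values rest on 24 mappable coding bases, and with all positions counted its change with CMCT was -0.11. Gpx4 had no mappable 3' UTR base and no value.

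Over the SECIS elements, the AA of the apical part had more RT stops in DMS than in NT. Summed over the 6 mRNAs, these 12 bases had 2 and 2 stops in NT, 54 and 64 in DMS, and 11 and 8 in CMCT. The DMS libraries were thus above all the others. With 2 libraries against 2 the exact two-sided permutation test cannot go below p = 0.333, so the values over the elements are given without a test. Without Gpx4, none of whose element is mappable, the 10 bases left had 2 and 1 stops in NT, 21 and 36 in DMS, and 4 and 4 in CMCT. The Sep15 and Selk elements are mappable at 63.8% and 54.3% of their bases, and 25-base stretches of them occur up to 3 and 5 times in mm9. Over the AA of Gpx1, Txnrd1 and Sepw1, whose elements are mappable at every base, there were 2 and 1 stops in NT, 18 and 32 in DMS, and 3 and 3 in CMCT. Per base, all 12 bases had 0.167 in both NT libraries and 4.50 and 5.33 in DMS. The 824 A bases in the rest of the 3' UTRs had 0.313 and 0.211 stops per base in NT and 1.03 and 1.15 in DMS. The contrast between DMS and NT was smaller over the whole apical run of A. This run is the AA with adjoining unpaired A, 17 bases, extended after the values were seen. It had 13 and 13 stops in NT, 66 and 79 in DMS, and 24 and 21 in CMCT. Without Gpx4 the run had 13 and 12 in NT and 28 and 43 in DMS.

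Both DMS libraries were above both NT libraries at the AA in 5 of 6 mRNAs. Among the 546 other genes with the letters, 8 pairs and any stop at the AA, this held for 40.1%, and their summed stops there were 248 and 261 in NT, 1478 and 1593 in DMS, and 421 and 361 in CMCT. Genes of any depth are among these, so the shares are given side by side without a test. In Gpx4 the AA had 0 and 1 stops in NT, 33 and 28 in DMS, and 7 and 4 in CMCT. In Gpx1 it had 2 and 1 in NT, 13 and 9 in DMS, and 3 and 3 in CMCT, but the next A of its run had 11 and 11 in NT and 5 and 6 in DMS, so that the run of 3 had 13 and 12 in NT and 18 and 15 in DMS. In Sepw1 it had 0 and 0 in NT, 4 and 23 in DMS, and 0 and 0 in CMCT, a spread between the DMS replicates that left its size uncertain. Sep15 had 2 stops in each DMS library and Selk 1 and 2, against 0 in NT, and Txnrd1 had 1 and 0 against 0. At so few stops no difference was detectable for these 3 mRNAs one by one, since a count of 0 allows up to 3.

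The paired bases of the helix above the quartet, by contrast, had in sum about as many RT stops in DMS as in NT. Single bases with many stops in NT weighed on this sum. Summed over the 6 mRNAs, the 122 paired bases had 39 and 39 stops in NT, 44 and 40 in DMS, and 40 and 31 in CMCT. Per 1000000 mappable stops of the library these were 1.64 and 2.23 in NT, 1.90 and 1.92 in DMS, and 1.09 and 1.34 in CMCT, so that DMS lay within NT and both CMCT libraries lay below it. A paired base of Gpx1, 34 bases after the first of the quartet, held 10 and 11 stops in NT and 3 and 4 in DMS. A paired base of Gpx4, 13 bases after it, held 7 and 10 in NT and 1 and 0 in DMS. The other paired bases together had more stops in DMS than in NT in both replicates. Among the 50 A and C of the helices, which DMS could modify if unpaired, there were 22 and 22 stops in NT and 26 and 29 in DMS. The Gpx1 base is among these 50, and without it the excess in DMS is larger. The Gpx4 helix had 3 and 2 stops on its A and C in NT and 10 and 10 in DMS, against 19 and 20 and then 16 and 19 on those of the other members. A single base, the paired A next to the apical run, held 6 and 7 of the DMS stops on the Gpx4 helix, with 0 and 0 in NT. The bases between the helix strands other than the A run had 101 and 95 stops in NT, 152 and 144 in DMS, and 241 and 230 in CMCT on 73 bases. Most of the latter stops were on Gpx1, with 63 and 56 in NT, 100 and 88 in DMS, and 179 and 180 in CMCT on 7 bases.

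The base just before the quartet had RT stops in all 6 libraries in Gpx4, Gpx1 and Txnrd1. In Gpx4 it was the strongest position of the counted 3' UTR in all 6 libraries, with 100 and 92 stops in NT, 153 and 133 in DMS, and 406 and 300 in CMCT. In Gpx1 it had 4 and 4 in NT, 14 and 10 in DMS, and 20 and 15 in CMCT. In Txnrd1 it had 10 and 11 in NT, 15 and 13 in DMS, and 16 and 10 in CMCT. Sepw1 had stops there in replicate 1 only (2 in NT, 17 in DMS and 6 in CMCT), and Sep15 and Selk had 0 to 2 in every library. The quartet letters themselves had few, with 0 to 8 stops per library outside Gpx4 and 13 to 35 in Gpx4.

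**Figure D4:**
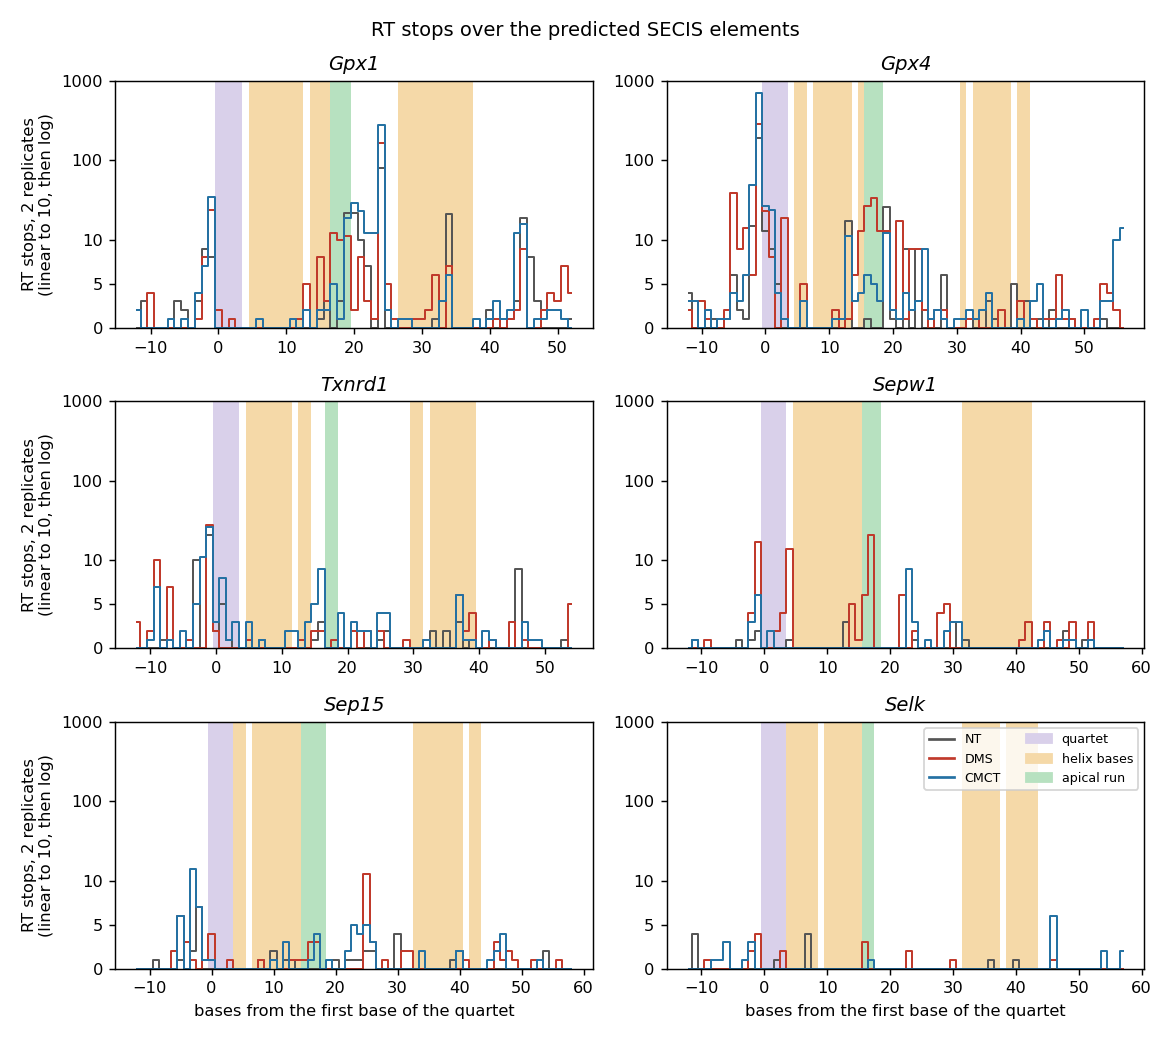
RT stops of both replicates summed at each base over the SECIS element of each mRNA, by distance from the first base of the quartet, for NT (grey), DMS (red) and CMCT (blue), on an axis that is linear up to 10 and logarithmic above. Purple marks the quartet, orange the paired bases of the predicted helix and green the apical run of A; the red line stands above the grey one at all 3 green bases of Gpx4 and at the first 2 of Gpx1 and Sepw1, the grey one above the red at the last green base of Gpx1, and the base before the quartet is the highest of the counted 3' UTR in Gpx4.

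As a whole, the element had more RT stops per base than the rest of the 3' UTR in Gpx1 and fewer in Sep15, Txnrd1 and Selk, in every library. The base just before the quartet was counted in neither the element nor the rest. In Gpx1 it had 2.22 and 1.98 stops per base in NT, 3.29 and 3.00 in DMS, and 4.93 and 4.95 in CMCT, beside 0.504 to 0.715 in the rest of the 3' UTR. A single base, 24 bases after the first of the quartet, held 42 and 38 of these stops in NT, 90 and 78 in DMS, and 138 and 143 in CMCT. Without it the Gpx1 element had 1.23 and 1.07 stops per base in NT, 1.12 and 1.12 in DMS, and 1.6 and 1.5 in CMCT. In Sep15 it had 0.213 in both NT libraries and 0.340 to 0.468 in the treated ones, beside 0.626 to 1.98. In Txnrd1 the element had 0.209 to 0.907 and the rest 0.456 to 1.31. Gpx4 had 1.22 and 1.27 in NT, 2.62 and 2.20 in DMS, and 2.09 and 1.24 in CMCT on the element. The rest had 2.27 and 1.71, 2.30 and 1.87, and 2.93 and 1.35. The element was thus lower in NT and CMCT and higher in DMS, but this order depended on leaving out the base before the quartet. With that base counted in the rest, the element was lower in every library, and with it counted in the element, higher in every library. Sepw1 had 0.0652 and 0.130 in NT, below the rest (0.116 and 0.149), and 0.652 and 1.02 in DMS, above the rest (0.265 and 0.291). In CMCT it had 0.239 and 0.326 beside 0.255 and 0.215, lower in replicate 1 and higher in replicate 2. Selk had at most 4 stops on the element in any library, or 0 to 0.087 per base beside 0.113 to 0.306 in the rest.

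Normalised reactivities, from 0 to 1, put the treated stops against the NT stops at each base, as the larger of the DMS and CMCT values. In the apical A run the mean reactivity was 1.00 in Gpx4 and Selk, 0.667 in Sepw1, 0.594 in Sep15, 0.536 in Gpx1 and 0.312 in Txnrd1. In the paired bases of the helix it was 0.290 in Gpx4, 0 in Selk, 0.114 in Sepw1, 0.0811 in Sep15, 0.272 in Gpx1 and 0.320 in Txnrd1. The run was thus above the helix in 5 of 6 mRNAs and level with it in Txnrd1, which had 1 stop there in all. Reactivities above 0.7, called high, were found at 10 of the 17 bases of the runs and at 14 of the 122 paired bases. Over the counted 3' UTR, high bases were 29 of 179 in Gpx1, 383 of 1653 in Txnrd1 and 35 of 322 in Sepw1. They were 231 of 624 in Sep15, 57 of 394 in Selk and, at all positions, 50 of 196 in Gpx4. The runs are all A and the helices are of mixed bases, and no share over other A is given. The paired bases of Gpx4 depended on the transcript to which the counts were scaled. With Gpx4-001, the transcript with an annotated selenocysteine codon and the shortest coding region, 8 of its 18 paired bases were high in place of 3. Their mean was then 0.465, and all 3 bases of the run were high with both transcripts. For Txnrd1 and Sep15 that choice of transcript starts the 3' UTR at another base, and no value of their helices is given with it. Selk had at most 2 stops on its run in any library.

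Over whole regions, the mean reactivity was lower in the 3' UTR than in the coding region for 4 of 5 members, beside 90.8% of the 4202 genes that gave a value. For Gpx1 it was 0.266 in the 3' UTR and 0.430 in the coding region, and with replicate 1 or replicate 2 alone the 3' UTR had 0.230 and 0.206 and the coding region 0.417 and 0.413. For Sepw1 it was 0.197 and 0.411, and with single replicates 0.213 and 0.172 against 0.441 and 0.393. For Txnrd1 it was 0.314 and 0.354, and for Selk 0.171 and 0.707, the latter over 24 bases. Sep15 was the exception, with 0.429 in the 3' UTR and 0.380 in the coding region, and each replicate alone gave the same order (0.385 against 0.342 and 0.415 against 0.359). In Gpx4, at all positions, the regions were close, at 0.328 and 0.316. Bases without a treated stop have a reactivity of 0, and in all 5 members, Sep15 included, the 3' UTR had fewer RT stops per base than the coding region in the mean over libraries. The part of coverage in these differences was not tested.

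**Figure D5:**
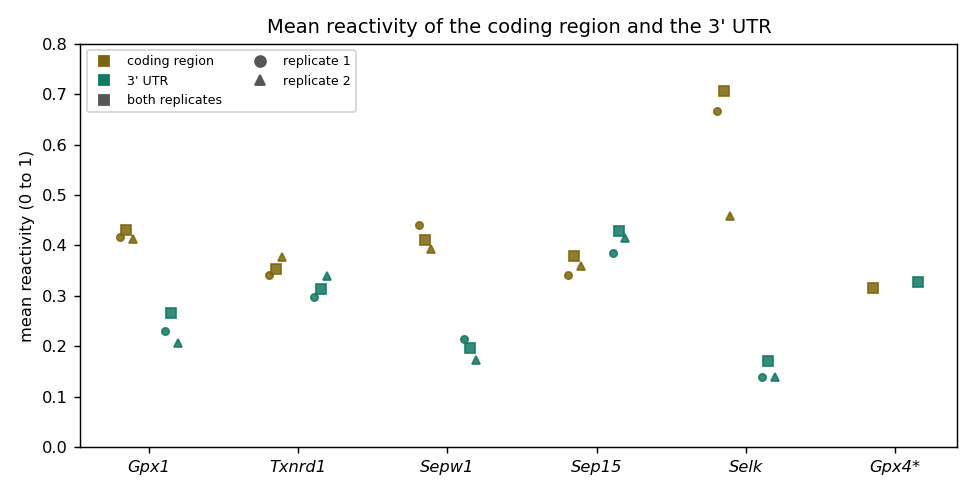
Mean reactivity of the coding region (brown) and of the 3' UTR (green) of each selenoprotein mRNA, from both replicates together (squares), replicate 1 alone (circles) and replicate 2 alone (triangles); Gpx4, marked with a star, is at all positions and the others at mappable positions. The 3' UTR lies below the coding region in Gpx1, Txnrd1, Sepw1 and Selk and above it in Sep15.

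Around the selenocysteine codon, RT stops were counted over the codon with 15 bases on both sides. Gpx1 had 3.91 and 2.97 stops per base in this window in NT, 5.70 and 4.58 in DMS, and 7.55 and 7.27 in CMCT, beside 4.48 and 2.94, 5.06 and 3.16, and 5.69 and 4.87 over its coding region. The window was thus close to the coding region in NT and above it with both reagents. Sepw1, with its codon near the start, had 1.27 and 0.909 in NT, 2.21 and 0.939 in DMS, and 2.88 and 1.94 in CMCT, beside 0.917 and 0.500, 1.54 and 0.992, and 1.69 and 1.38. Sep15 stood at the other end, with 1 and 1 stops in the whole window in NT, 2 and 1 in DMS, and 8 and 1 in CMCT, although all of its bases were mappable. This is 0.0303 to 0.242 stops per base beside 0.909 to 2.01 over the coding region of the same transcript, Sep15-002.

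Txnrd1 had 1.45 and 0.636 stops per base in the window in NT, 0.848 and 0.242 in DMS, and 1.33 and 1.21 in CMCT. The window was below the coding region with DMS (1.30 and 0.819) and with CMCT (2.26 and 1.34), and slightly above it in NT (1.21 and 0.596). As the codon is number 498 of 499, the window also covers the stop codon and the first bases of the 3' UTR. Gpx4 had 4.85 and 5.24 in NT, 12.1 and 22.3 in DMS, and 10.4 and 6.48 in CMCT, with 3.03% of its window mappable, and Selk had 0 to 15 stops in a window with no mappable base. On the UGA itself stops were few. They were 0 to 5 per library in Gpx1, 0 to 1 in Txnrd1 and Selk, 0 to 7 in Sepw1, none in Sep15 in any library, and in Gpx4 2 and 1 in NT, 1 and 7 in DMS, and 17 and 13 in CMCT.

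On the members other than Gpx4, whose strongest positions are given above, the position with the most RT stops by the mean over the 6 libraries also had stops without treatment, and it was not the strongest in every library. In Gpx1 it was a U in the coding region (base 80), with 245 and 155 stops in NT, 156 and 12 in DMS, and 149 and 161 in CMCT. Base 358, also a U, had more in CMCT replicate 1 (210) and in DMS replicate 2 (42). In Sepw1 the position was a U in the 5' UTR (base 55), with 54 and 14 in NT, 41 and 124 in DMS, and 45 and 31 in CMCT. In Sep15 it was a G in the 5' UTR (base 287), with 148 and 149 in NT, 61 and 113 in DMS, and 72 and 38 in CMCT, and both NT libraries were above all 4 treated libraries.

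In Txnrd1 it was a C in the coding region (base 1227), with 40 and 2 stops in NT, 40 and 11 in DMS, and 141 and 19 in CMCT, so that replicate 1 was above replicate 2 in each treatment. In Selk it was a U in the 5' UTR (base 145), with 34 and 21 in NT, 9 and 13 in DMS, and 18 and 5 in CMCT. Both NT libraries were above the treated ones at this base.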

How the data were processed

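The authors deposited unnormalised counts of RT stops, base by base along every transcript, for 6 CIRS-seq libraries, and RNA-seq alignments for 1 library. Reads were mapped to an mm9 variant with E14 single-nucleotide variants; the treatment of reads with several places is not given in the sources used here. The submitters' processing notes name Bowtie 1.0.0. The authors' files that pool both replicates were not used. GENCODE vM1 (mm9) contained 26792 of the 26827 transcripts. Counts were taken once per genomic position and gene, at mappable positions. For regions, the listed protein-coding transcript with the longest coding region was used for each of 6518 genes. Tests used edgeR 4.0.16 in R 4.3.3 (TMM, filterByExpr, quasi-likelihood, Benjamini-Hochberg at 0.05), on all 6 libraries, with 2 per treatment; p-values measure the spread between these replicates. DESeq2 1.42.0, other scalings, all positions, no filter, a replicate block and leaving out each library were alternatives. The fits were tested on simulated counts. SECIS candidates were folded with ViennaRNA 2.7.2, 10 bases added on both sides. The 3' end of an element was set at the first GA after the helix, a choice made after the data were seen. For reactivity, the counts of both replicates plus 1 were scaled to the transcript mean; the log2 ratio of treated over NT was set to 0 where negative or without treated stops, and each transcript was capped at its 90th percentile, which became 1 (Winsorising). Named genes were the members, called genes of the other selenoprotein and machinery lists, and the 3 genes nearest in region ratio; the tested genes of the first list and 2810407C02Rik are named beyond this rule, after their values were seen, and the cell markers only as a check of the line. The members and lists were chosen with earlier results of these data known. PCR duplicates cannot be told from molecules, so depth gives counting error only.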

Additional observations from a re-analysis of the deposited data

How the results depend on the processing

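With DMS against NT, 1709 genes were called, 3485 with all positions and 1063 with DESeq2 size factors, and 0 to 3556 when 1 library was left out, 0 without either NT library. With CMCT the count of 1101 became 3827 with all positions, 1983 with DESeq2, 678 with DESeq2 size factors, and 22 to 3104 with 1 library left out. For the 3' UTR against the coding region, 3 calls with DMS became 879 with all positions, 371 with DESeq2, 1 with library totals, 0 with the replicate block and 0 to 214 with 1 library left out. For CMCT, 1 call became 994, 308, 0, 0 and 0 to 332 under the same changes. At an unadjusted p under 0.05 the main tests of this ratio had 1395 and 1351 genes. The share of higher calls fell from 71.0% to 52.5% with DMS and from 75.5% to 51.8% with CMCT when all positions were counted, and with DESeq2 it was 61.0% and 50.7%. DESeq2 size factors moved the median log2 fold change of all genes from 0.11 to 0.00 with DMS and from 0.10 to -0.01 with CMCT. The cause of these shifts was not tested.

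Of 264 values of the members under the alternatives, 243 kept their sign and 7 passed the threshold, those of Gpx4 with CMCT (5) and of Sep15 for the region ratio with DESeq2 (2). The log2 fold change of Gpx4 with CMCT was called without either DMS library (-3.50, edgeR adjusted p = 0.020 and 0.019) and without CMCT replicate 1 (-4.36, edgeR adjusted p = 0.025), where 10.0%, 9.90% and 26.4% of all genes were called. Signs changed with all positions for Gpx1 with CMCT (0.052), Selk with DMS (0.054) and the region ratios of Sepw1 (0.044) and Txnrd1 (0.054) with CMCT, with DESeq2 (-0.087) or its size factors (-0.093) for Sep15 with CMCT, and for Gpx4 with DMS without its first exon (0.54). With 1 library left out, the values that crossed 0 ran from -0.45 to 0.024 (Gpx1, DMS), -0.30 to 0.18 (Gpx1, CMCT), -0.32 to 0.14 (Selk, DMS), -0.10 to 0.068 (Sep15, CMCT), -0.093 to 0.31 (Sepw1, CMCT), and for the region ratio from -0.69 to 0.44 (Selk, DMS), -0.62 to 0.42 (Sepw1, CMCT) and -0.22 to 0.035 (Txnrd1, CMCT). None of the changed signs passed the threshold. Gpx4 ran from -3.53 to -0.097 with DMS and from -4.42 to -1.84 with CMCT, with the values nearest 0 without NT replicate 2. Ncl lost its call without either NT library, without CMCT replicate 2 and with DESeq2 size factors. No member had more RT stops per base in the 3' UTR, over the mean of the libraries kept, under any of 4 alternatives. A lower mean reactivity in the 3' UTR was found for 4 of 5 members under the 8 alternatives that changed a value, except at all positions. There it was found for 4 of 6, as Gpx4 joined with 0.328 in the 3' UTR and 0.316 in the coding region. Keeping positions without a treated stop changed no value of the members and could not have. Their transcripts had more stops in the treated libraries than in NT, so such a base had a log2 ratio below 0 and was set to 0. Without CMCT replicate 1, Sepp1 (-1.26, edgeR adjusted p = 0.026) and Rpl30 (-1.41, edgeR adjusted p = 0.0495) were called with CMCT, as were 26.4% of all genes. With the 3' end given by the search, the Gpx1 element had 2.64 stops per base over the 6 libraries in place of 3.39.

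The deviations of same-numbered libraries correlated at 0.41 for NT and DMS, -0.01 for NT and CMCT and 0.01 for DMS and CMCT, so that the numbers of NT and DMS deviated together and those of CMCT did not. The labels do not say what a number shares, and the replicate block was kept as an alternative. With the replicate block, 2333 and 1527 genes were called in place of 1709 and 1101, and 0 of the members.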
